A study of Homo sapiens with 14 samples.

Results

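The genes described are the 55 protein-coding histone genes of chromosome 6 whose symbols begin with H1- and a digit, or with H2AC, H2BC, H3C or H4C and digits, of 20033 protein-coding genes in all. They were taken by symbol and chromosome from a RefSeq gene table of build GRCh38.p14, which gives the span of each gene. A gene was called bound in a library when a called region overlapped its span or the 1 kb on either side by at least 1 bp. The set was selected on measured values, since it was put forward with earlier results of these peak lists known, in which the GLTSCR1 enrichment of H2AC8, H2BC8 and H3C6 in DMSO was among the highest. The values below are therefore a description and are given without a test.

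Histones package DNA. The core proteins H2A and H2B pair into dimers, H3 and H4 form a tetramer, and DNA wraps around the octamer they build together, while the linker histone H1 binds where DNA enters and leaves. The genes described here are replication-dependent: they are transcribed mainly in S phase, when new DNA must be packaged, most have no introns, and their mRNAs end in a stem-loop in place of a poly(A) tail. They lie in clusters and are transcribed in a nuclear compartment called the histone locus body, which forms around the NPAT protein.

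The peak lists came from chromatin immunoprecipitation followed by sequencing (ChIP-seq) in HS-SY-II, a human synovial sarcoma cell line with the genotype label WT. Cells received DMSO, the vehicle, or WA-68, a PROTAC that sends the bromodomain protein BRD9 for degradation, at 100 nM. GLTSCR1, a subunit that marks GBAF, the BAF-type chromatin remodeller to which BRD9 also belongs, was precipitated from DMSO cells and after 12, 24, 48 and 96 h of WA-68. SS18::SSX, the fusion oncoprotein that defines synovial sarcoma, was precipitated through an HA tag from DMSO cells and after 12, 24 and 48 h. How the tagged fusion was introduced into cells labelled WT is not given in the sources used here, nor is the time at which DMSO cells were harvested. Each of the 9 groups was 1 library, with the 5 input libraries not analysed here, so no difference between times has a replicate check. Time in culture and time of WA-68 cannot be told apart.

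The lists held 13677 to 18037 GLTSCR1 regions and 24846 to 28619 fusion regions. The fold of a region is the authors' enrichment of its strongest summit over local background, on a linear scale, and was compared only between genes within 1 list. Read depth is unknown from these lists, and a gene without a region was below the authors' threshold in that library. All 8 genes of a list linked to the fusion in synovial sarcoma, among them TLE1, BCL2 and SOX2, had a fusion region in all 4 fusion lists. Of all protein-coding genes 13.3% did.

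The 55 genes comprised 6 of H1, 12 of H2A, 15 of H2B, 10 of H3 and 12 of H4. Their spans ran from 386 to 13229 bp with a median of 489 bp. On chromosome 6 they formed 4 groups, split where neighbours were more than 250 kb apart. H2AC1 and H2BC1 lay alone at 25726063 to 25727345, 32 genes from H1-1 to H4C8 lay at 26017032 to 26285534, 5 from H2BC11 to H2AC12 at 27132316 to 27147562, and 16 from H2BC13 to H2BC17 at 27807479 to 27893891. Neighbours joined by a shared region in any list were treated as 1 unit, which gave 24 units, 11 of a single gene and 13 of several that together held 44 genes.

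Promoter sequences show what the bound and the unbound genes look like, since both occur within the same gene classes. Of the 55 genes, 50 matched an entry in the RefSeq promoter table (GRCh38.p14, 250 bases before to 50 after the gene start); H4C1, H4C3, H2AC12, H3C11 and H3C12 did not. For each class, the promoter of the gene under the region with the highest GLTSCR1 fold in DMSO is printed, followed by the first gene by position with no GLTSCR1 region in any list. For H1-5 and H2AC8 that fold comes from a summit at a neighbour, H4C13 and H3C6. Their own highest in-window folds were 19.2 and 17.7, below the 24.0 of H1-2 and the 26.5 of H2AC4. Capitals mark 4 motifs on either strand: CCAAT, recognised by the factor NF-Y; TATAAA, the core of a TATA box; ATTTGCAT, the octamer bound by POU-domain factors such as POU2F1; and AAACACA, an element known from H1 promoters. A motif on the other strand appears as its reverse complement. The bound genes shown are H1-5 (chr6:27867539-27867838, minus strand), H2AC8 (chr6:26216671-26216970, plus strand), H3C6 (chr6:26223928-26224227, plus strand) and H4C13 (chr6:27873485-27873784, minus strand). The unbound genes shown are H1-1 (chr6:26017738-26018037, minus strand), H2AC1 (chr6:25726513-25726812, minus strand) and H4C4 (chr6:26189063-26189362, minus strand); all 10 H3 genes had a GLTSCR1 region.

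H1-5: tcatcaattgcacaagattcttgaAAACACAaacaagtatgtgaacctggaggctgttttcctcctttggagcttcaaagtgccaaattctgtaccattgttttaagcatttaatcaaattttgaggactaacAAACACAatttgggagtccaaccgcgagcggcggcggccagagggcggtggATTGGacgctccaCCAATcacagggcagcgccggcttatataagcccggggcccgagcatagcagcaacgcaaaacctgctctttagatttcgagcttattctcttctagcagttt
H1-1: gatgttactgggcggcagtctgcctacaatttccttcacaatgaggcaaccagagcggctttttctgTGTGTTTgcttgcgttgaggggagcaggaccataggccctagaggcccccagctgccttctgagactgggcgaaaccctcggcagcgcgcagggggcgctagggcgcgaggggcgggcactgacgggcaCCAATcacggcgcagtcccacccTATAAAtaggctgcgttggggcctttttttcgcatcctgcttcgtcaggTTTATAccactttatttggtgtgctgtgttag
H2AC8: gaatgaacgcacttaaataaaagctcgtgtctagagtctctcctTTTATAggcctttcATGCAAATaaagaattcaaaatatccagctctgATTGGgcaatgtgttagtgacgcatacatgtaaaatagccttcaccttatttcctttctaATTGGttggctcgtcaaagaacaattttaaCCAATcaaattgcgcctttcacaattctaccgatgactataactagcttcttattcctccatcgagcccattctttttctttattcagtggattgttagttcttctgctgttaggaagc
H2AC1: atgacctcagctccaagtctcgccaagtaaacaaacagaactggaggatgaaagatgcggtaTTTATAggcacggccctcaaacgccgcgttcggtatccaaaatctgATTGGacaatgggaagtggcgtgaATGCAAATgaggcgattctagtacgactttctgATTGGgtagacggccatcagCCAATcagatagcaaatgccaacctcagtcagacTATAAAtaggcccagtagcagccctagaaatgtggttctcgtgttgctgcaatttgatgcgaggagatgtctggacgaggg
H3C6: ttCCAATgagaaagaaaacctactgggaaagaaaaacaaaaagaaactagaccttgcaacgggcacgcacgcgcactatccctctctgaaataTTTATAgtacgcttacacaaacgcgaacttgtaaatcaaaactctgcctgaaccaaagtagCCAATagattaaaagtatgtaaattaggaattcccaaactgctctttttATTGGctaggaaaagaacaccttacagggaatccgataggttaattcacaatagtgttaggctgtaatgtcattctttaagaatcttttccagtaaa
H4C13: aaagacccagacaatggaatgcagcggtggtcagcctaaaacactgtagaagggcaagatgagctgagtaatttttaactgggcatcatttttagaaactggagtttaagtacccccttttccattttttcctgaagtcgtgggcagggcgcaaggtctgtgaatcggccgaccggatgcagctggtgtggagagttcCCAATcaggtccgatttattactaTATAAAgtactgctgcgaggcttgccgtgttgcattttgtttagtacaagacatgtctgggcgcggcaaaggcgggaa
H4C4: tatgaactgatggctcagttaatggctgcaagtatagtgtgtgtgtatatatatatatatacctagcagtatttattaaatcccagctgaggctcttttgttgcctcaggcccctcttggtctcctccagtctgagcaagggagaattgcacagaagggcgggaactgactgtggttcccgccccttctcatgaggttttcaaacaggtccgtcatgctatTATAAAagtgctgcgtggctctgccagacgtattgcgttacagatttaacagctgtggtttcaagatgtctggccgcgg

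The bound H1-5 and the unbound H1-1 both carry the H1 element and CCAAT, and the bound H2AC8 and the unbound H2AC1 both carry 3 copies of CCAAT and an octamer. H4C13 holds 1 copy of CCAAT and 1 TATA box, while H4C4 holds a TATA box and no CCAAT. A GLTSCR1 region lay over the promoters of H1-5, H2AC8, H3C6 and H4C13 in all 5 lists. Fusion regions lay over those of H2AC8 and H4C13 in 2 of 4 lists each, and over those of H1-5 and H3C6 in none. The H2B partners of the H2A genes shown, H2BC8 and H2BC1, start head to head with them and share 268 and 286 of the 300 bases on the other strand.

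Over the 50 promoters, the motifs differed between gene classes. CCAAT was present in 43, against 36.4% of 15842 protein-coding promoters of the same length; it was in all 6 H1, 11 H2A, 15 H2B and 8 H3 promoters and in 3 of 10 H4 promoters. TATAAA was present in 33, against 9.63% of all promoters. The octamer was present in 22, of which 9 were H2A, 12 were H2B and 1 was the H3 gene H3C4, against 1.70% of all promoters. The entries of H3C4 and H2AC7 have the same coordinates and strand, so that 1 sequence is counted in both classes, for CCAAT as well. Head-to-head H2A and H2B genes have overlapping promoter windows, so most of their bases are counted in both classes, read from either strand. The counts of octamer, CCAAT and TATAAA promoters are therefore higher than the numbers of separate sequences. AAACACA was present in 6, which were the 6 H1 promoters, against 4.24% of all promoters. Among the 5 genes without a GLTSCR1 region in any list, CCAAT was in 4, TATAAA in 5, the octamer in 3 and AAACACA in 1. H2AC1 and H2BC1, both among these 5, are such a head-to-head pair. These are matches of letters in a fixed window and not measured sites.

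GLTSCR1 was called over nearly all of the genes in every list, with and without WA-68. In DMSO 50 of 55 were bound (90.9%, exact Clopper-Pearson 95% interval 80.0 to 97.0, which covers counting error only and takes neighbours as independent), against 37.3% of all protein-coding genes. In the 12 h list 49 were bound, against 33.5% of all genes, and in the 24 h list 50, against 23.7%. The 48 h list held 48 and the 96 h list 49, against 18.2% and 23.4%. The share of all genes with a GLTSCR1 region was thus lower in each WA-68 list than in DMSO, while the count of histone genes stayed between 48 and 50. Counted as units, GLTSCR1 lay over 19 of 24 in DMSO and over 18, 19, 18 and 18 later. Among 6955 genes no longer than the longest histone gene, H2BC5, the shares were 26.5%, 23.5%, 14.2%, 11.7% and 15.5%.

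**Figure D1:**
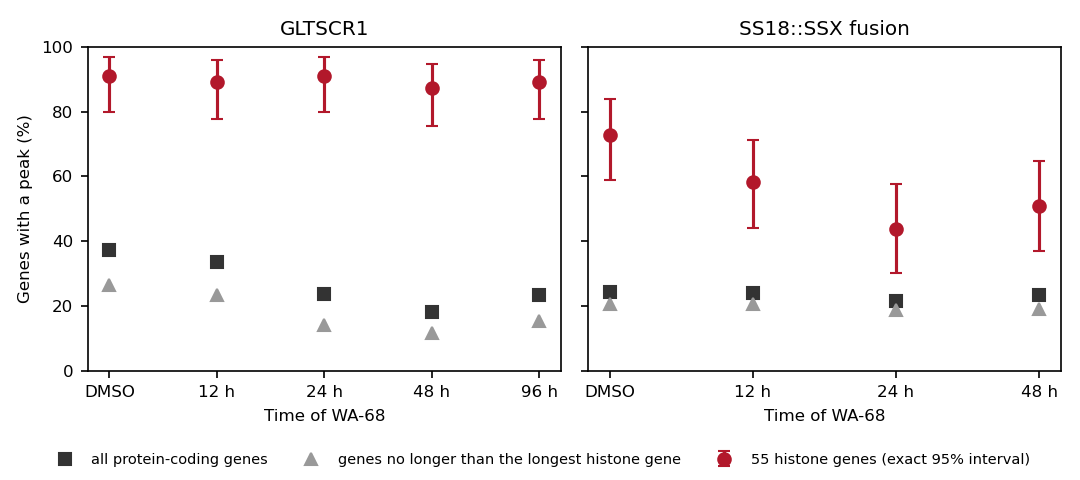
Percentage of genes with a region over the span and 1 kb either side, by library, for GLTSCR1 (left) and the SS18::SSX fusion (right). Red points are the 55 histone genes with exact 95% intervals, black squares all protein-coding genes, and grey triangles genes no longer than the longest histone gene; the GLTSCR1 points lie between 87.3% and 90.9% while the fusion points run from 72.7% in DMSO to 43.6% at 24 h.

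The same 47 genes were bound by GLTSCR1 in all 5 lists, against 11.6% of all genes and 6.97% of those no longer than H2BC5. Of the 50 bound in DMSO, 49, 50, 48 and 49 were still bound in the 4 WA-68 lists in order of time, against 74.1%, 53.5%, 42.5% and 53.4% of all genes bound in DMSO. At every later time 47 of the 50 were bound, against 31.1%. Genes under 1 region are not independent in these counts. Counted as units, 18, 19, 18 and 18 of the 19 bound in DMSO were still bound in order of time. All 5 lists held 17 units. No share of all genes was counted in units. No histone gene was bound in DMSO alone (16.4% of all DMSO-bound genes were), and none gained a region at a later time without one in DMSO (9.72% of all genes did). Only the 5 histone genes unbound in DMSO could gain one, so that count was nearly fixed in advance. The 9.72% is of all genes, of which 37.3% were bound in DMSO. The DMSO fold accompanied these counts: 46 of the 50 were in the highest 10% of DMSO-bound genes by region fold, all 46 were bound at every later time, and so were 83.0% of all genes in that highest 10%.

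The 3 genes bound in DMSO and missing from at least 1 later list were H1-6, H4C7 and H4C9. H1-6, a testis-specific H1 gene, had a region of fold 7.28 in DMSO, none at 12 h, 4.92 at 24 h, 5.63 at 48 h and none at 96 h. H4C7 had regions of 3.44, 5.36 and 3.27 in DMSO and at 12 and 24 h, none at 48 h and 4.19 at 96 h. H4C9 had regions of 4.76, 3.29 and 4.61 in the same 3 lists, none at 48 h and 3.78 at 96 h. Every value for these 3 genes was below the 90th percentile of its list given below, and none of the 3 had a fusion region.

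The 5 genes with no region in any of the 9 lists were H2AC1, H2BC1, H1-1, H2BC6 and H4C4, against 44.4% of all genes. H2AC1 and H2BC1, whose products are known from the testis, make up the isolated pair at the low-coordinate end. H1-1 lay next to H3C1, which was bound in all 9 lists, and H2BC6 and H4C4 were neighbours between the bound genes H2BC5 and H3C4. A count of 5 of 55 was thus a smaller share than that of all genes.

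**Figure D2:**
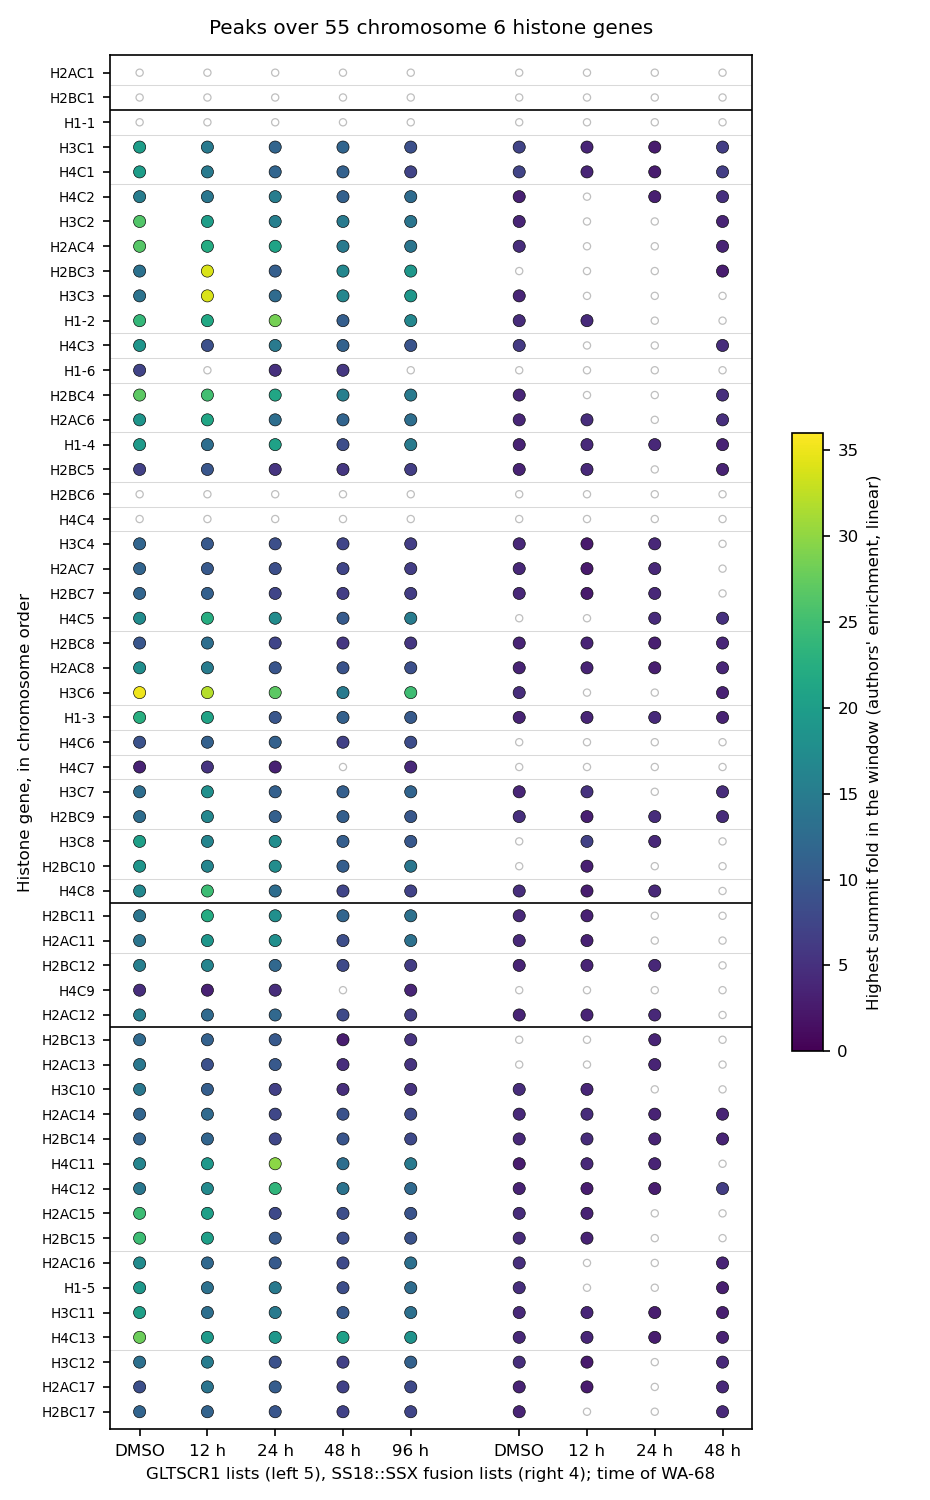
Colour gives the highest summit fold within the span and 1 kb either side. Rows are the 55 genes in chromosome order and columns the 5 GLTSCR1 and 4 fusion lists. Open circles mark genes with no called region, and a called gene without a summit in its window has the colour of its region's fold. Thin lines part the units and thick lines the 4 gene groups. The GLTSCR1 columns are filled for nearly all rows, H2AC1, H2BC1, H1-1, H2BC6 and H4C4 are open in all 9, and the fusion columns thin out from DMSO to 24 h.

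By class, the order of GLTSCR1 calls was H3 first and H1 last. All 10 H3 genes were bound in all 5 lists, with 11 of 12 H2A, 13 of 15 H2B, 9 of 12 H4 and 4 of 6 H1 genes. The H1 genes bound throughout were H1-2, H1-3, H1-4 and H1-5, the linker histones of most dividing cells. In DMSO the median highest summit fold within the window was 19.5 for H1, 17.1 for H3, 16.7 for H4, 15.3 for H2A and 12.7 for H2B. In the 96 h list the medians were 13.7, 11.3, 9.35, 8.86 and 8.01 in the same order of classes. The order was not kept in the lists between. At 12 h the medians were 17.1, 15.7, 14.7, 13.8 and 16.3, at 24 h 14.7, 12.0, 14.7, 10.0 and 10.0, and at 48 h 8.46, 10.7, 11.1, 8.48 and 8.56, again for H1, H3, H4, H2A and H2B. H1 was thus the lowest class at 48 h and H4 the highest, and neighbours of different classes share regions.

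The height of GLTSCR1 at these genes stood well above that at other bound genes, mainly in the DMSO, 12 h and 24 h lists. In DMSO the highest in-window summit fold ran from 4.76 to 35.1 with a median of 15.3 over 49 histone genes, against a median of 5.74 and a 90th percentile of 10.1 over all genes with a summit. There 43 of 49 histone genes were above that percentile, against 9.94% of all. At 12 h it was 45 of 49 (9.95% of all) and at 24 h 37 of 50 (10.0%). At 48 h it was 23 of 48 and at 96 h 24 of 49, with 10.0% of all genes in both. The medians over the histone genes were 14.9, 11.3, 9.34 and 9.71 at 12, 24, 48 and 96 h, against medians over all genes of 5.51, 5.43, 5.76 and 5.53. In all 5 lists the median histone gene was thus above the median gene, and the share above the 90th percentile was lower in the 48 h and 96 h lists than in the first 3. The background holds genes of every length, and a longer window can hold a higher summit.

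**Figure D3:**
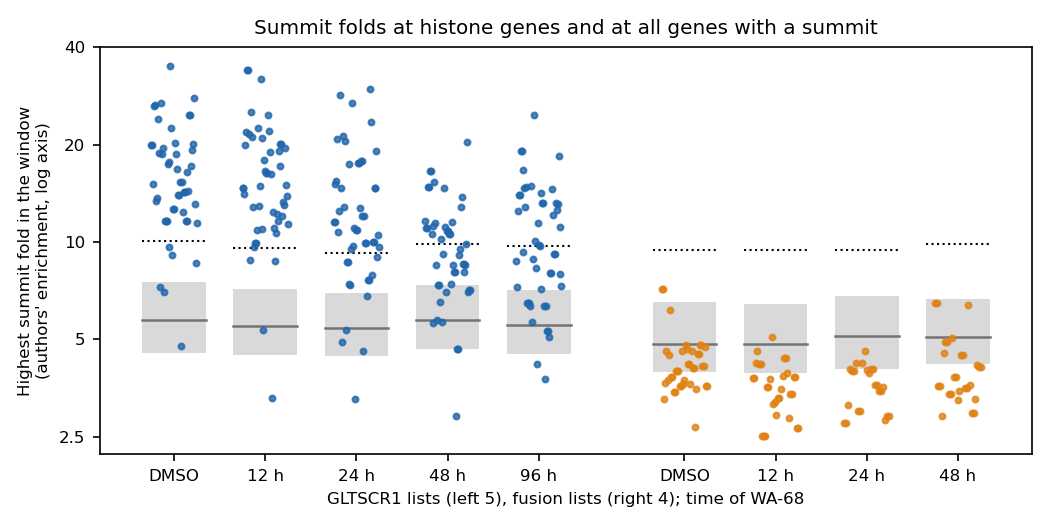
Highest summit fold in the window on a log axis; each point is 1 histone gene (blue GLTSCR1, orange fusion), grey boxes span the middle 50% of all protein-coding genes with a summit, the grey line is their median and the dotted line their 90th percentile. Most GLTSCR1 points lie above the dotted line in DMSO (43 of 49) and at 12 h (45 of 49), and no fusion point does.

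The 17 units bound by GLTSCR1 in all 5 lists are given in order along the chromosome, each with the fold of its strongest region in DMSO and at 12, 24, 48 and 96 h. H3C1 and H4C1, the first bound pair, had GLTSCR1 folds of 19.9, 14.7, 11.6, 11.6 and 8.77. The 6-gene unit from H4C2 to H1-2, which holds genes of all 5 classes, had 26.5, 33.9, 28.5, 16.6 and 19.1. It was the highest of the 17 at 12 h. Within it, the summit at H2BC3 and H3C3 led at 12 h (33.9 for both) and that at H1-2 led at 24 h (28.5).

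H4C3, a single H4 gene, had GLTSCR1 folds of 18.8, 8.82, 14.7, 11.2 and 9.35. The head-to-head pair H2BC4 and H2AC6 had 26.9, 25.2, 21.3, 15.4 and 14.7. H1-4 with its neighbour H2BC5 had 19.5, 12.9, 20.6, 8.46 and 14.8. H2BC4 and H2BC5 have spans of 10757 and 13229 bp in the gene table, so their windows are far longer than those of most other genes. For the 4 genes H3C4, H2AC7, H2BC7 and H4C5 the folds were 17.4, 22.5, 18.6, 15.4 and 14.9; the summits at 24 and 48 h lay outside the windows, where the highest within, at H4C5, were 17.4 and 10.2.

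H2BC8, H2AC8 and H3C6 shared the strongest region of the set in DMSO, with folds of 35.1, 32.0, 27.0, 14.7 and 24.8. That summit belonged to H3C6, whose own in-window values were the same in all 5 lists, while H2AC8 had 17.7, 14.9, 9.53, 9.20 and 8.86 and H2BC8 had 9.67, 12.9, 7.35, 5.64 and 5.68. The unit led all others in DMSO and at 96 h. H1-3, a linker histone gene that formed a unit alone, had 22.6, 21.0, 9.70, 11.1 and 10.0. H4C6 had 9.10, 11, 11.1, 7.01 and 8.33, the lowest of the 17 units in DMSO and at 48 h, and was the one gene bound by GLTSCR1 in all 5 lists with no fusion region in any.

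H3C7 and H2BC9 had GLTSCR1 folds of 12.7, 18.0, 10.9, 10.8 and 11.4. H3C8 and H2BC10 had 20.2, 16.4, 17.6, 10.6 and 14.1. H4C8, at the upper end of its group, had 16.9, 24.7, 12.7, 7.42 and 7.16. The middle group of 5 genes formed 2 units. H2BC11 and H2AC11 had 15.3, 22.0, 17.7, 11.6 and 13.2, and H2BC12, H4C9 and H2AC12 had 15.3, 16.3, 12.0, 8.11 and 6.36.

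The 9-gene unit from H2BC13 to H2BC15 had GLTSCR1 folds of 24.6, 20.1, 29.8, 13.8 and 14.6, and was the highest of the 17 at 24 h, through the summit at H4C11. H2AC16, H1-5, H3C11 and H4C13 had 27.9, 19.5, 19.1, 20.4 and 18.5, the highest of the 17 at 48 h. In that unit H4C13 held the strongest summit in every list. H3C12, H2AC17 and H2BC17, at the upper end of the cluster, had 13.1, 16.2, 12.0, 7.41 and 11.1. Its summits at 12, 24 and 48 h lay outside the windows (highest within 15.01, 10.5 and 7.12), as did that of H2BC11 and H2AC11 in DMSO (14.0 within). The leading unit thus differed between lists, with the exception of DMSO and 96 h.

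GLTSCR1 spread over these genes in wide regions rather than in narrow peaks. Regions over the histone genes numbered 32 in DMSO and 25, 34, 34 and 38 at 12, 24, 48 and 96 h, with medians of 3.87, 5.14, 3.25, 2.61 and 3.06 kb, against 0.568, 0.459, 0.451, 0.400 and 0.434 kb over all GLTSCR1 regions. Of the 32 in DMSO 13 were wider than 5 kb, against 1.26% of all regions in that list. At 12 h 14 were, at 24 h 10, and at 48 and 96 h 11 each, against 0.556%, 0.620%, 0.556% and 0.436%. The number of histone genes under such a region was 39 in DMSO, then 42, 33, 29 and 23, so fewer genes lay under wide regions at 96 h although 49 were bound. In DMSO and at 12 and 24 h, 1 region held 9 of these genes. The share of all genes under such a region was not computed, as the percentages above are of regions.

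The widest region covered the 9 genes from H2BC13 to H2BC15. It ran from 27806217 to 27841028 in DMSO (34.8 kb, with 57 summits), and was called as 1 region of 35.1 kb at 12 h and 34.7 kb at 24 h. At 48 h 4 regions of 1.66, 1.22, 22.6 and 6.59 kb lay over the same genes, and at 96 h 6 regions of 0.706, 1.93, 1.01, 6.98, 15.1 and 5.30 kb. A second region, over H3C2, H2AC4, H2BC3, H3C3 and H1-2, ran from 26031282 to 26060297 in DMSO (29.0 kb) and measured 29.0 kb at 12 h. At 24 h it was called as 7.66 kb over H3C2 and H2AC4 and 19.4 kb over the other 3 genes. At 48 h the parts over H3C2 to H3C3 measured 6.82 and 11.7 kb and that over H1-2 6.43 kb, and at 96 h 7.16, 13.3 and 6.12 kb. Both stretches were thus still covered at 96 h, in more and shorter pieces.

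**Figure D4:**
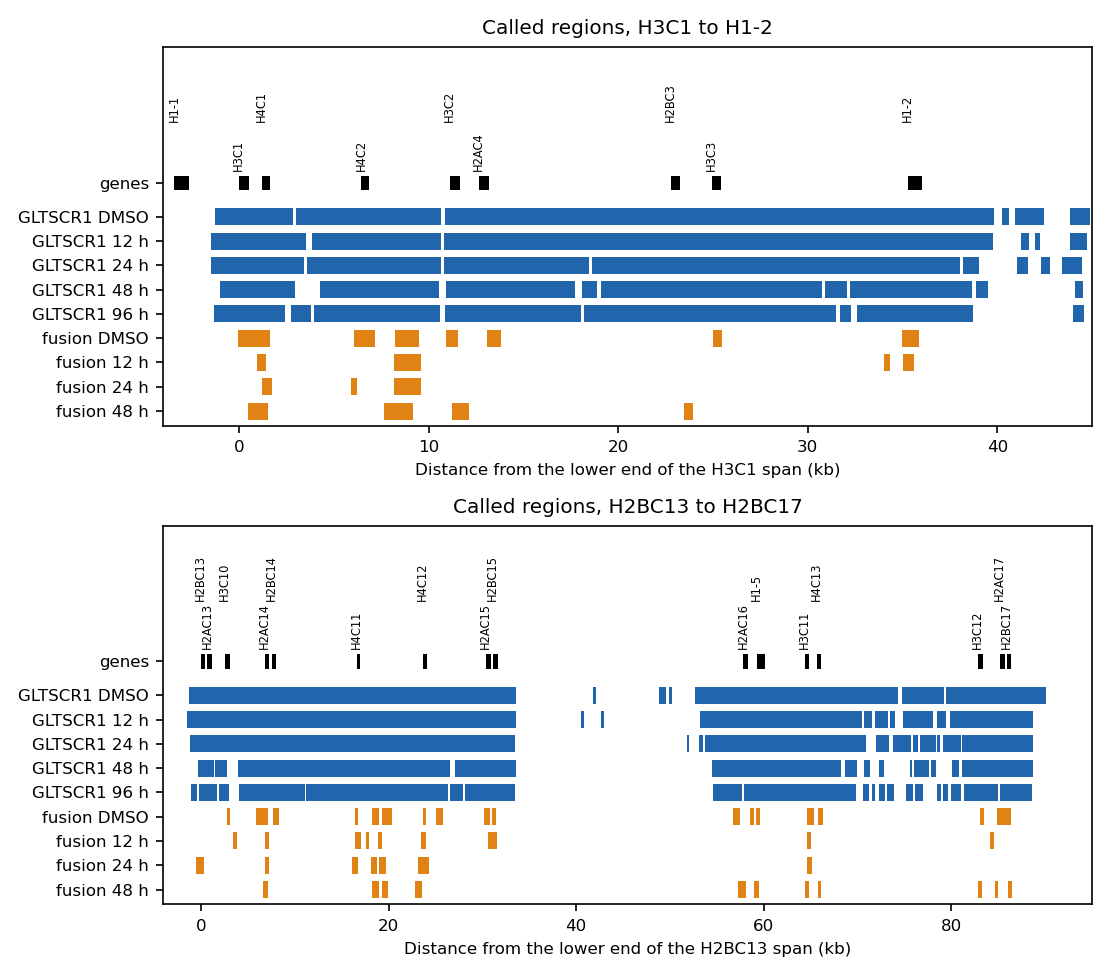
Regions called in each list over the stretch from H3C1 to H1-2 (top) and from H2BC13 to H2BC17 (bottom), by distance in kb from the lower end of the first gene; black bars are genes, blue bars GLTSCR1 regions and orange bars fusion regions. The GLTSCR1 region over the 9 genes at the left of the lower map is unbroken in DMSO (34.8 kb), at 12 h and at 24 h and is called in pieces at 48 and 96 h.

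Coverage was measured over each gene group with its 1 kb flanks. GLTSCR1 regions covered 52.0% of the H1-1 to H4C8 stretch in DMSO and 47.7%, 44.7%, 35.8% and 38.8% at 12, 24, 48 and 96 h. They covered 70.1%, 60.9%, 60.4%, 39.3% and 42.8% of the H2BC11 to H2AC12 stretch, and 79.3%, 75.5%, 74.9%, 65.3% and 67.0% of the H2BC13 to H2BC17 stretch. The order of the 3 groups was the same in all 5 lists, and the isolated pair H2AC1 and H2BC1 had no coverage in any. The number of summits over the H2BC13 to H2BC17 stretch, 121 in DMSO and 122, 121, 117 and 119 later, differed less between lists than the covered length. Over all chromosomes, GLTSCR1 regions covered 16.8 Mb in DMSO and 8.55 Mb at 48 h, so the covered length of the whole list also differed.

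**Figure D5:**
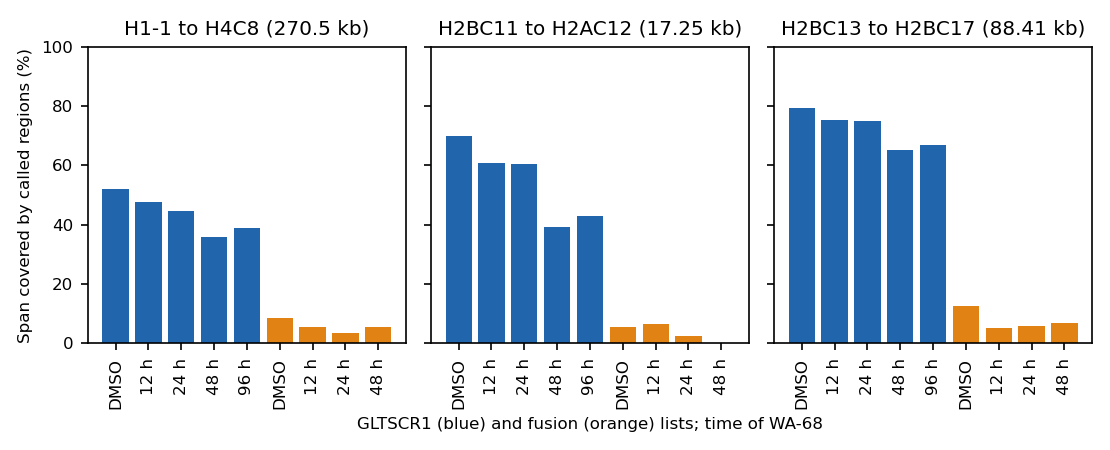
Percentage of each gene group, with 1 kb flanks, covered by regions of each library; blue bars are the 5 GLTSCR1 lists and orange bars the 4 fusion lists, 1 library each, and the isolated pair H2AC1 and H2BC1, at 0 in all lists, is not drawn. The H2BC13 to H2BC17 stretch is the most covered by GLTSCR1 in every list, from 79.3% in DMSO to 65.3% at 48 h.

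A summit of GLTSCR1 lay close to the start of most of these genes. Among genes with a summit in the window and a promoter entry, the nearest summit was within 500 bp of the start in 40 of 44 in DMSO, against 67.4% of all such genes. It was so in 42 of 44, 43 of 45, 41 of 43 and 43 of 44 in the WA-68 lists in order of time, against 63.0%, 40.8%, 39.9% and 43.1%. Several summits lay in most windows, and the windows were short (median span 489 bp with 1 kb either side), which both make a near one more likely. The background holds genes of every length, so these shares do not compare like windows. The strongest summit was within 500 bp in 15 to 20 genes a list, and its place kept within 200 bp over all 5 lists in 2 of 42 genes, against 14.5% of all genes with a summit in each list. Those were H3C6, with the summit 416 to 504 bp downstream of the start, and H4C13, at −301 to −206 bp from the start, where a minus sign means upstream. Where several summits share a window, the strongest can change from list to list, and the 14.5% covers windows with other numbers of summits.

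Counted over the promoter window alone, GLTSCR1 lay over 44 of 50 histone promoters in DMSO, against 22.5% of all promoters. At 12, 24, 48 and 96 h it lay over 42, 44, 43 and 43, against 17.6%, 7.93%, 5.95% and 8.21%. Of the 10 pairs of genes that start head to head 194 to 979 bp apart, 9 had GLTSCR1 over both windows in all 5 lists and the pair H2AC1 and H2BC1 in none. The windows of a pair overlap, and the share among all head-to-head pairs was not computed. The promoters were thus bound about as often as the wider windows.

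The fusion protein was called over fewer of the genes than GLTSCR1 at each time, and the genes called differed between lists. In DMSO 40 of 55 were bound (72.7%, 59.0 to 83.9), against 24.2% of all genes. The WA-68 lists held 32, 24 and 28 in order of time, against 23.9%, 21.6% and 23.5% of all genes. Among genes no longer than H2BC5 the shares were 20.5%, 20.5%, 18.6% and 19.2%. The share of all genes differed by under 3 percentage points over the 4 lists, while the count of histone genes ran from 24 to 40. Counted as units, the fusion lay over 15, 15, 12 and 12 of 24, a smaller spread than that of the gene counts.

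In all 4 fusion lists 12 genes were bound, against 13.3% of all genes: H3C1, H4C1, H1-4, H2BC8, H2AC8, H1-3, H2BC9, H2AC14, H2BC14, H4C12, H3C11 and H4C13. These 12 were also the genes bound in all 9 lists, against 6.48% of all genes. Another 34 genes had GLTSCR1 in all 5 lists and the fusion in 1 to 3. Of the 40 genes bound in DMSO, 30, 20 and 26 were still bound at 12, 24 and 48 h, against 71.0%, 67.6% and 71.5% of all DMSO-bound genes. At every later time 12 of 40 were bound, against 55.0%, and H3C3 was bound in DMSO alone, 1 of 40 against 15.4%. The DMSO folds were low: 36 of the 40 were at or below the median of DMSO-bound genes by region fold. By time, 27, 17 and 22 of those 36 were still bound at 12, 24 and 48 h. The shares of all genes at or below that median were 52.9%, 47.1% and 54.7%, so the 24 h count was near its share. At every later time 9 of the 36 were bound, against 28.5%, a share near the background. Another 6 genes (H2BC3, H4C5, H3C8, H2BC10, H2BC13 and H2AC13), or 6 of 55 against 13.1% of all genes, had a fusion region later and none in DMSO. Both shares count genes that could not gain a region: the 40 histone genes bound in DMSO and 24.2% of all genes. They are therefore not a comparison of genes free to gain one.

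The 4 units under the regions with the highest fusion folds in DMSO were H3C1 with H4C1, H4C3, H2BC8 with H2AC8 and H3C6, and the H2AC16 to H4C13 unit. H3C1 and H4C1 reached 7.18, 3.79, 2.75 and 6.48 in the DMSO, 12 h, 24 h and 48 h lists. H4C3 had 6.17 in DMSO, no region at 12 or 24 h, and 4.54 at 48 h. The place of the H2BC8 unit rests on a summit outside the windows. H2BC8, H2AC8 and H3C6 had 5.06, 3.56, 2.999 and 3.84, with a highest in-window fold of 4.59 in DMSO, at H3C6, below the 4.82 at H2BC9 and the 4.74 at H3C12. H2AC16, H1-5, H3C11 and H4C13 had 4.82, 3.82, 2.90 and 3.62. The first 2 of these units held the H4 genes H4C1 and H4C3, and H4C3 was the one of the 4 units to be missing from a list. The folds of different lists are on different scales, so these values do not compare amounts.

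The other units bound by GLTSCR1 throughout fell into those with a fusion region in every list and those without. The unit from H4C2 to H1-2 had fusion folds of 4.62, 4.22, 3.14 and 4.98, the last from a summit outside the windows, with 3.59 as the highest within. H1-4 with H2BC5 had 3.43, 4.20, 4.06 and 3.40, and H1-3 had 3.64, 3.77, 4.23 and 3.46. H3C4 to H4C5 had 3.99, 2.52, 4.22 and 5.04, and the 9-gene unit had 4.59, 4.39, 3.63 and 6.40. H3C7 and H2BC9 had 4.82, 9.68, 4.62 and 4.47, where the 9.68 came from a summit outside the windows and the highest within was 5.09. All these units were called in 4 of 4 fusion lists, though not each of their genes.

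H2AC6 lacked the fusion at 24 h alone, with 3.84, 4.62 and 4.90 in the other lists, and its partner H2BC4 lacked it at 12 h too. H3C12 and H2AC17 also lacked it at 24 h alone, with 4.74, 2.67 and 4.18 for H3C12, and H2BC17 lacked it at 12 and 24 h. H4C8 lacked it at 48 h, after 4.68, 2.91 and 3.94, and H2BC12 with H2AC12 did too, after 3.64, 3.52 and 4.05. H2BC11 and H2AC11 had it in DMSO (4.20) and at 12 h (3.30) only. H2BC10 had it at 12 h only (3.2), and H3C8 at 12 h (6.95, from a summit outside its window) and 24 h (4.02) only. No gene of the H2BC11 to H2AC12 group had a fusion region at 48 h, when 4 of its 5 genes had GLTSCR1.

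Within their lists the fusion folds at histone genes were low. In DMSO the in-window summit folds ran from 2.68 to 7.18 with a median of 4.09 over 39 genes, against a median of 4.84 over all genes with a summit. At 12, 24 and 48 h the medians were 3.56, 3.63 and 3.84, against 4.84, 5.12 and 5.08. None of the 39, 30, 23 and 27 histone genes was above the 90th percentile in its list, against 10.0%, 9.98%, 10.0% and 10.0% of all genes. The same genes thus stood high among GLTSCR1-bound genes of every length and low among fusion-bound genes of every length. A longer window can hold a higher summit and most histone genes are short, so these folds do not compare like windows. No fold background of short genes was made.

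Fusion regions here nearly all overlapped a GLTSCR1 region, and their median width was below that of all fusion regions in each list, by little in DMSO. Over the histone genes there were 39 in DMSO and 26, 18 and 23 later. Their medians were 0.634, 0.474, 0.392 and 0.532 kb, against 0.675, 0.647, 0.658 and 0.663 kb over all fusion regions. Of these regions 0 were wider than 5 kb, against 4.70%, 4.21%, 3.22% and 3.65% of all. At such shares few wide ones would fall in sets of this size. All 39, 26 and 18 of the first 3 lists and 22 of 23 at 48 h overlapped a GLTSCR1 region of the same time, against 36.2%, 24.2%, 26.6% and 25.3% of all fusion regions. At the level of genes, every fusion-bound histone gene was also GLTSCR1-bound at the same time: 40 of 40, 32 of 32, 24 of 24 and 28 of 28, against 73.7%, 63.2%, 53.7% and 51.9% of all fusion-bound genes. GLTSCR1 lay over 48 to 50 of the 55 histone genes in each list, so few could have the fusion alone. Over the promoter window alone the fusion lay over 20, 10, 8 and 9 of 50, against 11.5%, 9.72%, 8.86% and 11.3% of all promoters.

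The remaining histone genes and the machinery that serves them give a frame for these values. The 14 replication-dependent histone genes of chromosomes 1 and 12 were all bound by GLTSCR1 in all 5 lists, against 11.6% of all genes. The fusion lay over 14, 10, 7 and 14 of them, against 24.2%, 23.9%, 21.6% and 23.5% of all genes. H4C16, on chromosome 12, had GLTSCR1 folds of 14.2, 19.1, 12.1, 11.2 and 14.7. Several of these genes are near-identical copies, as are some of chromosome 6, and how reads that match several copies were placed is not given in the sources used here. Of 11 replication-independent histone genes, which are expressed throughout the cell cycle, GLTSCR1 was called over 10, 10, 6, 4 and 5. The shares of all genes were 37.3%, 33.5%, 23.7%, 18.2% and 23.4%. H1-10, H2AJ and H3-3A had a GLTSCR1 region in all 5 lists, as did 11.6% of all genes. H3-3A, which encodes the variant H3.3, had 12.6, 8.51, 4.83, 6.16 and 7.42.

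Of 20 genes for histone gene transcription and mRNA 3' end processing, GLTSCR1 was called over 12 in DMSO and 9, 4, 3 and 3 later. The shares of all genes were 37.3%, 33.5%, 23.7%, 18.2% and 23.4%, and the counts from 24 h on were near or below them. The fusion was called over 3, 3, 3 and 1, against 24.2%, 23.9%, 21.6% and 23.5% of all genes. POU2F1, which encodes the octamer-binding factor, was the one of the 20 bound by GLTSCR1 in all 5 lists, as were 11.6% of all genes. Its folds were 5.56, 5.27, 8.23, 4.42 and 8.68. NPAT, the scaffold of the histone locus body, had a region in DMSO alone (3.91), and CASP8AP2, another protein of that body, had none. SLBP, the stem-loop binding protein, had GLTSCR1 in DMSO (4.41) and at 12 h (7.79) and the fusion in the first 3 lists (3.62, 4.95 and 6.02). HFE, an iron-regulating gene that lies among the histone genes between H1-2 and H4C3, had GLTSCR1 folds of 15.5, 6.91, 13.4, 6.54 and 6.83 and a fusion region in DMSO alone (4.19).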

How the data were processed

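ChIP-seq peak lists of 5 GLTSCR1 and 4 HA (SS18::SSX) libraries were used, 1 library a group, grouped by the labels. The submitters' processing notes name MACS2 and, among other tools, BWA, Picard, SAMtools, cutadapt and deepTools, with GRCh38. Not given in the sources used here were versions, settings, the use of the inputs and the handling of reads that match several histone copies. For each summit the authors deposited a fold enrichment (a linear ratio) and −log10 p and q values from their caller, with a lowest −log10 q of 3.00, and an integer score, which was not used.

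Entries with the same coordinates were joined into 1 region that carried its strongest summit. A gene counted as bound when a region overlapped its span with 1 kb either side by at least 1 bp. Neighbours sharing a region in any list formed 1 unit. The background was the same call over all 20033 protein-coding genes of RefSeq GRCh38.p14, whose table gives spans without exons. Shares carry exact Clopper-Pearson 95% intervals for counting error only; with 1 library a group no test between conditions was made. Overlap, summit and unit counting was tested on simulated data. Python 3.11.15, numpy 2.4.6, pandas 2.3.3, scipy 1.17.1 and matplotlib 3.10.9 were used.

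The members, gene lists, tests and alternatives were chosen with earlier results of these data known. Values are printed for the 6 units with the highest GLTSCR1 and the 4 with the highest fusion fold in DMSO, every unit bound by GLTSCR1 at all 5 times, members gained or lost after DMSO, members in no list, and of the processing genes those bound throughout with NPAT, CASP8AP2 and SLBP. The other genes named (H3-3A, H4C16, H1-10, H2AJ, HFE, H1-6, H4C7, H4C9 and single genes within units) were chosen after their values were seen. Alternatives covered the overlap rule, the threshold, list length, the window, wide regions, units and the background.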

Additional observations from a re-analysis of the deposited data

How the results depend on the processing

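Of 199 values recomputed under an alternative, 139 counts or shares stayed close (counts within 1.5 times, background shares within their counting interval) and 60 moved further. The GLTSCR1 counts depended most on wide regions. Without regions over 5 kb, GLTSCR1 lay over 14, 8, 21, 23 and 28 members (DMSO to 96 h), 7, 13, 11 and 13 of those in DMSO were still bound at 12 to 96 h, and 11, 4, 11 and 12 had both proteins (DMSO to 48 h). Counted as 24 units, GLTSCR1 lay over 19, 18, 19, 18 and 18, with 18, 19, 18 and 18 still bound; the fusion lay over 15, 15, 12 and 12, with 14, 11 and 12 still bound; and both lay over 15, 15, 12 and 12. Units are fewer than members by construction. The other changes were in fusion counts. At a −log10 q of at least 5 the fusion lay over 18 members at 12 h and 11 at 24 h, all with GLTSCR1, and 15 and 9 were still bound. With the gene span alone it lay over 17 and 13, again all with GLTSCR1, and 15, 9 and 15 were still bound at 12, 24 and 48 h. With 3 kb either side 31 were still bound at 24 h. The shares of all genes were not computed without wide regions, at the stricter q, or with the 2 other window sizes. The counts under these settings show how the member counts move and cannot be set against a background. The RefSeq promoter window, an alternative chosen after seeing the data, gave 20, 10, 8 and 9 fusion-bound members. Among genes no longer than the longest member the background was 26.5%, 23.5%, 14.2%, 11.7% and 15.5% for GLTSCR1 and 20.5%, 20.5%, 18.6% and 19.2% for the fusion, below that of all genes in every list. The cause of the remaining differences was not tested. No paired analysis was possible because each group held 1 library, and no library could be left out for the same reason. Read depth is unknown, so a fusion region near the threshold in one list and missing in the next is not shown to differ.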

Other observations

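Inside the histone gene groups, 8 DMSO fusion regions outside the members' windows overlapped a fusion region in each of the 3 later lists. The share of all DMSO fusion regions that did so was not computed, so this count has no background. Some of the 8 shared 1 later region, and some later regions reached into a member's window, as at H2BC9 and H3C8 at 12 h and H4C2 at 48 h. The strongest, at 26254736 to 26256146 on chromosome 6 beyond H2BC9, reached 6.66, 9.68, 7.85 and 10.1 in the DMSO, 12 h, 24 h and 48 h lists and overlapped GLTSCR1 regions in all 5 lists. A second, at 26028676 to 26029957 between H4C2 and H3C2, had 5.71, 6.59, 8.55 and 4.98, also with GLTSCR1 in 5 lists. One more, at 26268973 to 26269737 near H3C8, had 4.89, 6.95, 3.45 and 6.42. In the 48 h list no member had a fusion summit as high as 10.1 in its window, where the highest was 6.48.

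GLTSCR1 regions in the gene groups were parted by 35, 35, 37, 31 and 40 gaps under 1 kb in DMSO and at 12, 24, 48 and 96 h. Of these, 2 recurred in all 5 lists. One, at 26031097 to 26031246 by H3C2, was 185, 166, 169, 362 and 256 bp wide. The other, at 26065354 to 26065461 beyond H1-2, was 257, 416, 530, 991 and 765 bp wide.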
